A study of Mus musculus with 6 samples.

Results

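Chemokines are small secreted proteins that guide migrating cells, and 9 chemokine genes together with Il33, a cytokine gene of the interleukin-1 family, were followed through the mesenchyme of the developing mouse gut. These 10 genes were chosen by name from the 24568 gene symbols of the matrix, and all 10 were found there. They were picked because earlier readings of the same matrix had shown them to differ between groups of cells, so every level, ratio and co-detection value given here is a description of these cells and carries no test. The genes were Cxcl1, Cxcl2, Cxcl10, Cxcl12, Cxcl13, Cxcl14, Ccl2, Ccl7, Ccl11 and Il33, and Pdgfra, the gene of a platelet-derived growth factor receptor, was measured beside them.

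Fibroblasts of the gut wall are a main source of chemokines, which act on leukocytes and endothelial cells through receptors coupled to G proteins. Some chemokines are made constantly to place cells in tissue, such as CXCL12, the ligand of CXCR4 and ACKR3, and CXCL13, the ligand of CXCR5 that draws B cells and lymphoid tissue inducer cells to forming lymphoid organs. Others, such as CXCL1, CXCL2, CXCL10 and CCL2, are known as products of inflammatory signalling through NF-kB and interferon. IL-33 is stored in nuclei of stromal and barrier cells and is sensed through IL1RL1 together with IL1RAP.

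Intestines of Pdgfra-H2BGFP mice of the C57/BL6 strain, in which a nuclear green fluorescent protein reports Pdgfra, were profiled by single-cell RNA sequencing with lipid-bound sample barcodes. Embryos of E13.5 (4 pooled replicates), E14.5 (3) and E18.5 (2) were run together, and so were embryos of E15.5 (2) and E16.5 (2). Intestines were divided along their length into pieces of 2.5 mm, giving 3, 5, 10, 15 and 20 segments from the youngest to the oldest age. Each of these runs gave 2 lanes of all live cells and 1 lane of enriched cells, sorted for CD31, CD45, Epcam or high PDGFRA reporter signal, so that the 6 samples formed 4 groups. The fluorescent reporter was used in the sort of the enriched cells, and Pdgfra is therefore not an independent readout of that sort.

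The counts of all samples were deposited as 1 matrix of 13127 cell barcodes. Its barcodes carry 6 suffixes, made of an ending, called A and B here, and of sets 1, 2 and 3 within each ending. No label ties a suffix to a sample, an age or a sort, so A1 to B3 are technical sets and not groups of the study, sets 1 and 2 are not replicates, and the matrix counts as 1 sample. After filtering, 12630 cells were kept, with median unique molecular identifiers (UMIs, the counted transcript molecules) per cell from 3548 in B3 to 13574 in A2. Ending A had counts for 21351 genes and ending B for 18222, of which they shared 17403, so levels in the endings rest on different gene lists. There were 22 barcode sequences under 2 suffixes, 3 of these within an ending. The label small intestine could not be checked with the marker genes used, which mark cell types and not organs. The summed level of 7 mesenchyme markers was 3816 to 7353 CPM in every set, where CPM is the share of UMIs that a gene takes up, scaled to a common total. The summed level of 6 epithelial markers was 37.0 to 324 CPM and that of 6 endothelial markers 8.52 to 55.6 CPM. Mesenchyme markers were thus the highest of these 3 lists, though transcripts of other cell types were present. Globin transcripts were among them: 3 erythroid markers summed to 10.4 to 13.9 CPM in ending A and to 579 to 1255 CPM in ending B, and the embryonic globin gene Hbb-y led 1 cluster of ending B. Lyz2, a myeloid gene, was among the 10 leading genes of 1 other cluster of ending B, at 50.5 CPM, and Cd74, a gene of antigen-presenting cells, among those of 1 cluster of ending A, at 38.2 CPM.

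The genes lie in few places of the mouse genome (GRCm38 coordinates, GENCODE annotation). Cxcl1 (chr5:90891241-90893115) and Cxcl2 (chr5:90903871-90905938) are neighbours 10.8 kb apart, and Cxcl10 (chr5:92346638-92348889, minus strand) and Cxcl13 (chr5:95956951-95961068) lie on the same chromosome. Ccl2 (chr11:82035571-82037453), Ccl7 (chr11:82045712-82047525) and Ccl11 (chr11:82057823-82062955) follow each other at distances of 8.26 kb and 10.3 kb. Cxcl12 (chr6:117168535-117181367), Cxcl14 (chr13:56288643-56296551, minus strand) and Il33 (chr19:29925114-29960718) stand alone. Transcripts of Cxcl2 share 7.59% of their stretches of 31 bases with those of Cxcl3, so reads of these genes may not always be told apart. The level of Cxcl3 was 0.32 CPM in sets 1 and 2 of ending A and 1.51 CPM in set 3.

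Promoter sequences are shown for Cxcl1, Cxcl2 and Cxcl10, the genes with the highest co-detection ratios (at a minimum of 2 expected cells, chosen after the values had been seen), and for Cxcl13, the gene that separated the sets most. Each is the stretch of 150 bases before the transcript start in RefSeq (GRCm38.p6), written 5′ to 3′ on the strand of the gene, with motif matches in capitals. The stretches are chr5:90891095-90891244 on the plus strand for Cxcl1, chr5:90903749-90903898 on the plus strand for Cxcl2, chr5:92348890-92349039 on the minus strand for Cxcl10 and chr5:95956789-95956938 on the plus strand for Cxcl13.
Cxcl1: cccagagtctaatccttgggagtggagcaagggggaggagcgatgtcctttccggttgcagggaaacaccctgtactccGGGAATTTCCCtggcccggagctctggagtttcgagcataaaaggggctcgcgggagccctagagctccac
Cxcl2: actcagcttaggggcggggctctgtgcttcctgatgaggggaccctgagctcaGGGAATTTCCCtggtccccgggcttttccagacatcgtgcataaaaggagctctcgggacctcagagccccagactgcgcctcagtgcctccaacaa
Cxcl10: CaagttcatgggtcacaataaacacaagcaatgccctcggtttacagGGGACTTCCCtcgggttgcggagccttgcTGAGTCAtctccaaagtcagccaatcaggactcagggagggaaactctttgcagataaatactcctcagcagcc
Cxcl13: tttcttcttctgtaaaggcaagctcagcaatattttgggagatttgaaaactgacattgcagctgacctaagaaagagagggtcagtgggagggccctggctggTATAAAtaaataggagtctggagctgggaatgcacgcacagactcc
A match to the kappaB consensus, the sequence bound by NF-kB, was present within 250 bases before the start in Cxcl1, Cxcl2 and Cxcl10, which are 3 of the 7 genes with an entry in the promoter table. Ccl2, Ccl7 and Ccl11 had no entry. The same match was found in 3.9% of 32851 mouse promoters of this length. It began 71 bases before the start in Cxcl1 and 97 bases before it in Cxcl2, where overlapping matches on both strands form the 11 capitals of each line. Cxcl10 had 2 matches, at 159 and 103 bases before the start, and the single capital that opens its line is the last base of the farther match. Cxcl10 also had TGANTCA (in 6.75% of promoters) at 74 bases and, beyond the printed stretch, the core of the interferon-stimulated response element (2.98%) at 213 bases before the start. The capitals of Cxcl13 mark TATAAA (12.4% of promoters), and no kappaB match was found in its window. All motifs were searched on both strands, and a match describes letters only.

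Cxcl13, Il33, Cxcl12 and Ccl2 were lower in set 3 than in sets 1 and 2 of both endings, and Cxcl13 differed most. Cxcl13 stood at 167, 160 and 10.0 CPM in A1, A2 and A3, and at 341, 348 and 6.10 CPM in B1, B2 and B3. Its level in set 3 was 16.3-fold lower than in sets 1 and 2 together in ending A and 56.6-fold lower in ending B. At a common depth of 2000 UMIs per cell, a Cxcl13 UMI was found in 16.4% and 16.04% of the cells of A1 and A2 and in 1.70% of A3 (32.8%, 33.0% and 4.59% before thinning). The values in ending B were 23.1%, 23.7% and 0.74% (30.2%, 30.5% and 1.14% before thinning). Thinning left out 41 cells in all, between 1 and 13 per set. In both endings the exact intervals of sets 1 and 2 lay far above those of set 3, and these intervals cover counting error only.

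Il33 stood at 64.3, 61.7 and 7.21 CPM in A1, A2 and A3, and at 30.7, 32.9 and 2.68 CPM in B1, B2 and B3. Set 3 was 8.74-fold lower in ending A and 11.9-fold lower in ending B. The few Il33 transcripts of set 3 were held by few cells: 36 of 1177 cells in A3 and 17 of 2189 cells in B3 had any, against 961 of 2459 in A1 and 253 of 2208 in B1. The top 1% of cells held 10.2% of the Il33 UMIs and 27.8% of the Cxcl13 UMIs of A1, but in B1 they held 18.2% of each.

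Cxcl12 had a UMI in 61.7% and 64.5% of the cells of A1 and A2 and in 20.4% of A3 before thinning. At the common depth it was detected in 18.8% and 19.9% of B1 and B2, where Cxcl13 and Ccl11 (21.0% and 20.5%) were found in more cells. The level of Cxcl12 was 123, 124 and 44.6 CPM in ending A and 118, 120 and 52.3 CPM in ending B, which made set 3 2.77-fold and 2.27-fold lower. Sets 1 and 2 were close to each other in both endings, and set 3 was below them in both. Ccl2, which draws monocytes through CCR2, was rarer. It stood at 28.3, 27.5 and 5.28 CPM in ending A and 17.0, 17.5 and 6.34 CPM in ending B, with set 3 lower by 5.29-fold and 2.73-fold.

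These 4 genes were the ones of the 9 members reaching 5 CPM in both endings that were at least 2-fold lower in set 3 in both, and 0 of the 9 were at least 2-fold higher. Of all 9985 genes reaching 5 CPM, 3.98% were lower and 7.2% were higher in set 3 by this measure. The median log2 ratio of set 3 to sets 1 and 2 was 0.10 in ending A and -0.99 in ending B over these 9 genes, and -0.02 and 0.15 over all genes. Since the genes were chosen with this contrast known, nothing is read from the share.

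The other members differed between endings. Cxcl14, a chemokine made by many epithelia and stromal cells at rest, stood at 10.7, 9.22 and 61.9 CPM in ending A, where set 3 was 6.19-fold higher. In the other mesenchymal clusters (defined below) it stood at 10.6, 8.50 and 5.16 CPM instead, a log2 ratio of -0.89. The last of these values rests on 10 UMIs in 3 of 151 cells (interval 2.47 to 9.49 CPM). In PDGFRA-high clusters Cxcl14 stood at 18.7, 64.0 and 76.9 CPM, from 8, 24 and 565 UMIs. In ending B it stood at 17.0, 16.5 and 8.41 CPM, and set 3 was 1.99-fold lower. Ccl11, the eotaxin that draws eosinophils through CCR3, was the most abundant member of set 3, at 97.5, 78.1 and 219 CPM in ending A and 182, 186 and 158 CPM in ending B. Set 3 was thus 2.49-fold higher in ending A and 1.17-fold lower in ending B. In ending A the direction turned within PDGFRA-high clusters (defined below), at 555, 363 and 244 CPM and a log2 ratio of -0.93, and the log2 ratio was -0.082 among cells with no cycling UMI. Cxcl2, a neutrophil attractant acting through CXCR2, stood at 5.99, 6.20 and 20.1 CPM in ending A and 14.9, 17.4 and 21.2 CPM in ending B. It was 3.31-fold higher in set 3 of ending A and 1.31-fold higher in that of ending B.

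Cxcl1, a further CXCR2 ligand, and Cxcl10, a CXCR3 ligand, differed less between sets. Cxcl1 stood at 16.1, 14.4 and 16.4 CPM in ending A and 16.3, 17.6 and 10.6 CPM in ending B, where set 3 was 1.60-fold lower. Cxcl10 stood at 31.7, 19.4 and 28.9 CPM in ending A and 35.1, 30.0 and 29.4 CPM in ending B. In Cxcl10 the difference between A1 and A2 was larger than that between set 3 and sets 1 and 2 of ending A. Ccl7, a monocyte attractant, did not reach 5 CPM in any set, with 1.22 to 3.23 CPM, and no fold is read from it.

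**Figure D1:**
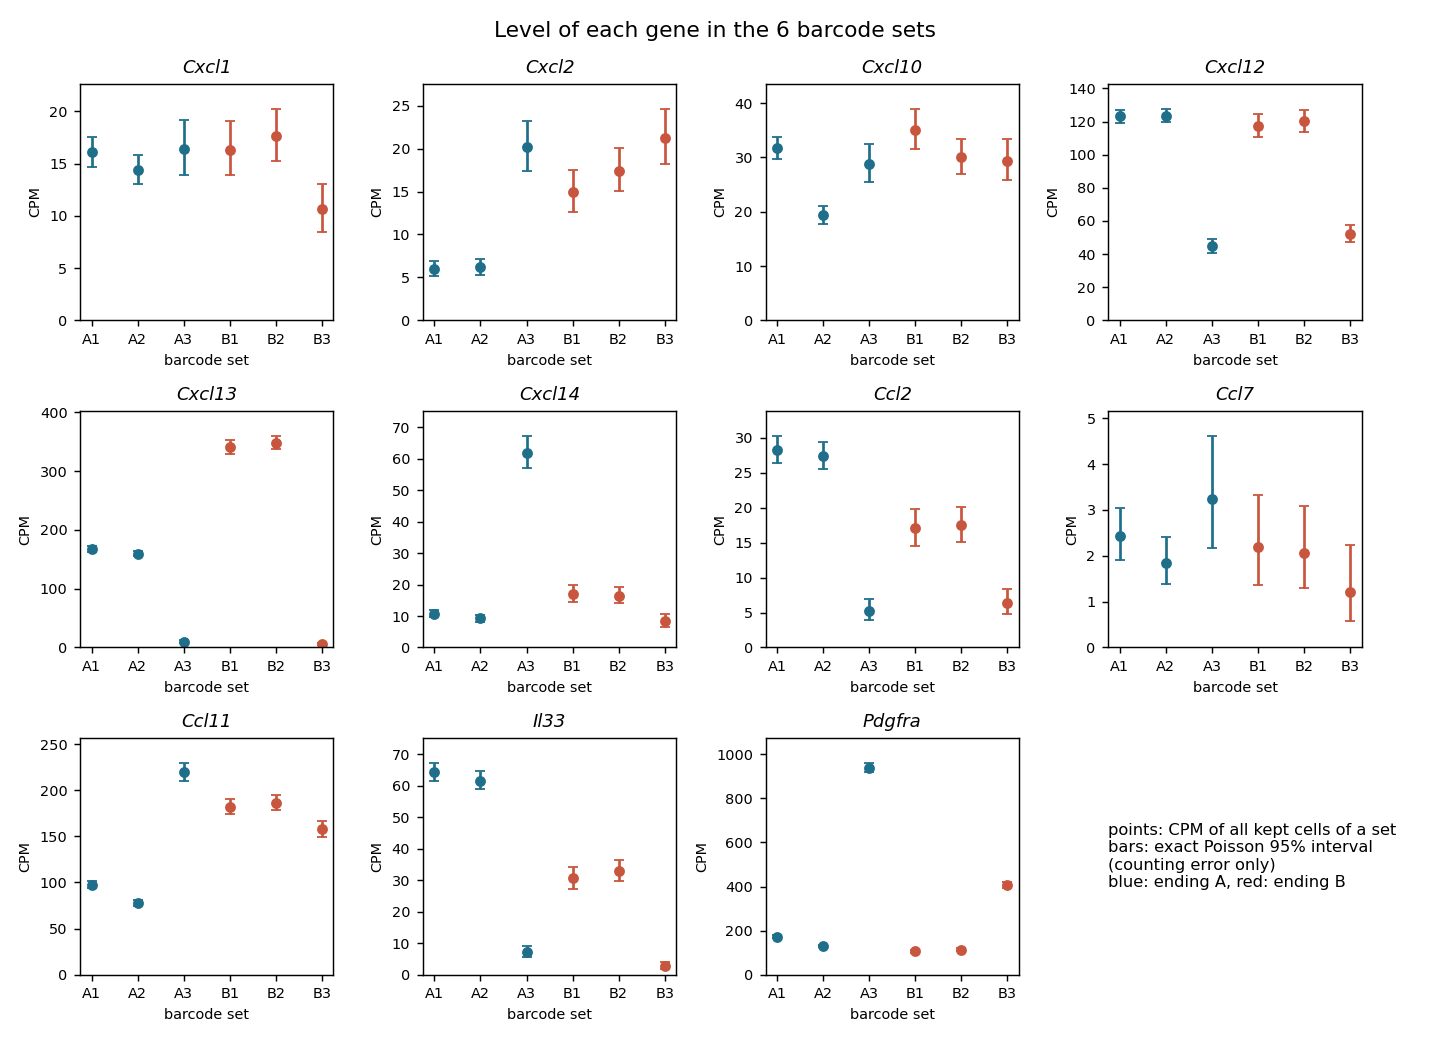
Levels of the 10 genes and of Pdgfra (CPM, vertical axes from 0) in the 6 barcode sets, with exact Poisson 95% intervals. Cxcl12, Cxcl13, Ccl2 and Il33 are lower in A3 and B3 than in the other sets of their ending, Pdgfra is higher, and Cxcl14 is higher in A3 (61.9 CPM) but lower in B3 (8.41 CPM).

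Other transcripts moved with set 3. Pdgfra stood at 939 CPM in A3 against 173 and 129 CPM in A1 and A2, and at 408 CPM in B3 against 105 and 113 CPM in B1 and B2. The summed level of 10 PDGFRA-high mesenchyme markers was 884 to 1444 CPM in sets 1 and 2 and 4651 and 4096 CPM in A3 and B3, with 8 of the 10 at least 2-fold higher in both. The summed level of 7 adventitial fibroblast markers was 299 to 419 CPM in sets 1 and 2 and 73.3 and 26.8 CPM in A3 and B3. Of these markers, 3 of 3 tested (Ogn, Dpt and Aspn) were lower. The others were too low to be tested and did not share a direction. Compared with sets 1 and 2 together, Clec3b and Pi16 were lower in set 3 of both endings, and Ly6a and Dpp4 were higher. Epithelial markers summed to 324 and 101 CPM in A3 and B3 and to 37.0 to 46.7 CPM elsewhere. Of these, 5 of 5 tested were at least 2-fold higher in set 3 of both endings. Endothelial markers summed to 55.6 and 49.1 CPM in A3 and B3 and to 8.52 to 19.8 CPM elsewhere, with 3 of 3 tested higher. Smooth muscle markers summed to 552 and 229 CPM against 1126 to 1593 CPM, with 4 of 6 lower, and enteric neuron markers to 4.74 and 1.34 CPM against 30.1 to 82.7 CPM, with 4 of 4 tested lower. Myeloid markers summed to 115 and 73.9 CPM against 16.6 to 41.4 CPM, with 3 of 4 tested higher. Lymphoid markers summed to 32.4 and 34.0 CPM against 2.56 to 13.3 CPM, with 1 of 1 tested higher. Cycling genes summed to 1556 and 795 CPM in A3 and B3 and to 2199 to 3221 CPM elsewhere. The part of these cells in the levels of the chemokines was not tested. Levels within clusters of cells are given below, and those clusters differ in the same markers.

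The cells of each ending were clustered with the 10 genes and 20 chemokine and Il33 receptors left out of the variable genes. There were 18 clusters for A and 12 for B, of which 16 and 11 held at least 50 cells. Clusters are called by number (Ac0, Bc0) and leading gene. Those with at least 3 of the 10 PDGFRA-high markers at 2-fold or more over the rest of the ending (Ac0, Ac12, Ac13, Bc1, Bc2 and Bc6) are called PDGFRA-high clusters. Pdgfra is itself among these markers, and this rule was set after the clusters had been seen. The PDGFRA-high clusters of ending A also carried transcripts of other cell types: Ac0, Ac12 and Ac13 had 6 of 6 epithelial markers at 2-fold or more over the rest of the ending, with summed levels of 359, 336 and 234 CPM, and 6, 5 and 4 of 7 myeloid markers. In ending B, Bc1, Bc2 and Bc6 had 0, 1 and 1 of 6 epithelial markers at 2-fold, with 93.3, 85.7 and 77.0 CPM, and 0 of 7 myeloid markers. The part of these transcripts in the levels given by cluster was not tested. Cluster Bc11, with 37 cells, carried markers of both enteric glia and enteric neurons, and the remaining clusters are called other mesenchymal clusters. Among these is Bc9 (251 cells), where 5 of 7 myeloid and 3 of 6 lymphoid markers were at 2-fold or more. Bc3 and Bc7 are also among them, with 0 of 10 PDGFRA-high markers at 2-fold. Their PDGFRA-high markers still summed to 2614 and 2261 CPM, beside 4443, 4044 and 3820 CPM in Bc1, Bc2 and Bc6. In the remaining clusters of this kind in ending B the sum was 456 to 1096 CPM.

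Within sets 1 and 2, the PDGFRA-high clusters held little Cxcl13 and Il33. In B1, Cxcl13 stood at 6.67 CPM (95% interval 2.68 to 13.7) in the 303 cells of PDGFRA-high clusters and at 381 CPM (369 to 395) in the 1883 cells of other mesenchymal clusters. The values of B2 were 11.6 and 398 CPM, those of A1 7.02 and 169 CPM and those of A2 2.67 and 162 CPM. The cells compared here came from the same set. The clusters themselves had been formed with the cells of set 3, which made up 69.3% to 93.5% of each PDGFRA-high cluster. Median depth was 3404 and 4332 UMIs per cell in B1 and 7543 and 12290 in A1, in PDGFRA-high and other mesenchymal clusters. The part of depth was not tested.

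Il33 followed the same order. It stood at 1.91 and 34.0 CPM in B1 and at 4.68 and 65.1 CPM in A1, in PDGFRA-high and other mesenchymal clusters. In B2 no Il33 UMI was found in the 392 cells of PDGFRA-high clusters, which allows a level of up to 2.18 CPM (3 counts), while other mesenchymal clusters stood at 37.6 CPM. Set 3 held both kinds of cluster as well: Il33 was at 1.09 and 30.4 CPM in A3 and at 0.43 and 15.6 CPM in B3. Cxcl13 was at 6.94 and 21.7 CPM in A3 and at 1.86 and 30.4 CPM in B3.

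Comparing set 3 with sets 1 and 2 inside the PDGFRA-high clusters, an alternative added after the data had been seen, left 0 members at least 2-fold lower in both endings. Cxcl13 then had a log2 ratio of 0.48 in ending A and -2.35 in ending B, and Il33 one of -2.78 and -0.94. These values rest on few transcripts, since A1 and A2 held 51 and 40 cells of such clusters. Inside the other mesenchymal clusters 3 members, Cxcl13, Ccl2 and Il33, were at least 2-fold lower in both endings, and the log2 ratios of Cxcl13 were -2.93 and -3.68.

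Cxcl12 and Ccl11 split the clusters less, and so did Ccl2 in ending B. Cxcl12 stood at 93.6 and 124 CPM in PDGFRA-high and other mesenchymal clusters of A1, with intervals that overlap. It stood at 82.7 and 124 CPM in those of A2, where the intervals did not overlap, and at 54.3 and 125 CPM in those of B1. Ccl2 was at 11.4 and 17.8 CPM in B1, where the intervals overlap. It was at 2.34 and 28.7 CPM in A1 and at 2.67 and 27.8 CPM in A2, with intervals that lay apart. The low value of Ccl2 rests on 1 UMI in each of A1 and A2, so the size of its split there is not ranked against that of Il33. Ccl11 was higher in the PDGFRA-high clusters of A1 (555 against 91.0 CPM) and lower in those of B1 (135 against 189 CPM). The other mesenchymal clusters of ending B include Bc3 and Bc7, which held the most Ccl11 of that ending (373 and 389 CPM). Their Cxcl13 was low (values below), so low Cxcl13 was not limited to PDGFRA-high clusters. The order of Ccl11 in ending B thus depends on where the 2-fold rule placed these clusters. The part of free RNA in the droplets in these levels was not tested. Cluster Bc11 held Cxcl13 in 40.9% of its 22 cells in B1, at a median of 7670 UMIs and 299 CPM. Bc11 also carried mesenchyme markers at 5569 CPM and adventitial fibroblast markers at 296 CPM, so its cells are not a clean reference of another lineage. The other mesenchymal clusters of B1 held it in 34.6% of cells, at a median of 4332 UMIs. This share lay inside the interval of Bc11 (20.7% to 63.6%). At these unlike depths the share alone does not set the other mesenchymal clusters apart from Bc11. The PDGFRA-high clusters of the same set held it in 2.31% of cells (0.93% to 4.70%), below both. In B2 the levels lay apart, at 177 CPM (112 to 265) in 15 cells of Bc11 and 398 CPM (386 to 411) in other mesenchymal clusters. Il33 stood at 34.5 CPM in the Bc11 cells of B1, from 6 UMIs, and at 34.0 CPM in the other mesenchymal clusters.

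**Figure D2:**
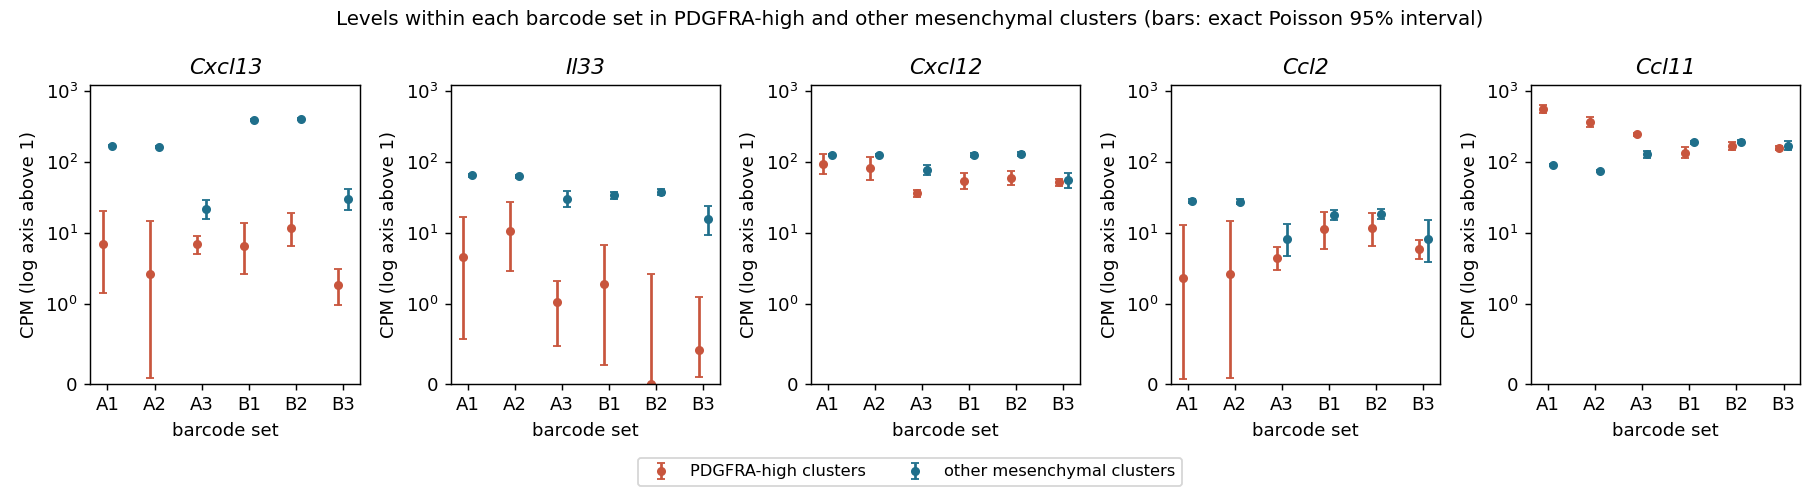
Levels of 5 genes (CPM, log axis above 1 and linear below) in PDGFRA-high and other mesenchymal clusters of each barcode set, with exact Poisson 95% intervals. Cxcl13 and Il33 are lower in PDGFRA-high clusters in each of the 6 sets, whereas Ccl11 is higher there in A1, A2 and A3 and not in B1, B2 and B3. Bc3 and Bc7 are counted with the other mesenchymal clusters.

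Cell by cell, the same was asked of Pdgfra UMIs. In sets 1 and 2 of ending B, thinned to 2000 UMIs, Cxcl13 was detected in 25.9% of 3826 cells with 0 Pdgfra UMIs, in 14.9% of 665 cells with 1, in 8.72% of 149 cells with 2 and in none of 59 cells with 3 or more. A count of 0 in 59 cells allows a share of up to 5.08%. In sets 1 and 2 of ending A the shares were 17.0%, 14.8%, 12.8% and 3.92% of 3426, 882, 180 and 51 cells. The share of cells with Cxcl13 was thus lower at more Pdgfra UMIs in both endings, and less steeply so in ending A up to 2 UMIs.

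Il33 was detected in 5.93% of cells with 0 Pdgfra UMIs in sets 1 and 2 of ending B, in 1.34% of those with 2 and in none of the 59 with 3 or more. In ending A its shares were 12.7% at 0 and 7.84% at 3 or more, with overlapping intervals (11.6% to 13.9% and 2.18% to 18.9%). Cxcl12 was detected in 20.6% and 8.47% of such cells in ending B (19.4% to 21.9% and 2.81% to 18.7%) and in like shares in ending A, where the interval of the cells with 3 or more was 11.3% to 35.3%. Ccl11 showed no such order: it was detected in 20.5% of cells with 0 Pdgfra UMIs in sets 1 and 2 of ending B, within the interval of those with 3 or more (12.3% to 34.7%), and in 13.1% and 23.6% in A3.

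**Figure D3:**
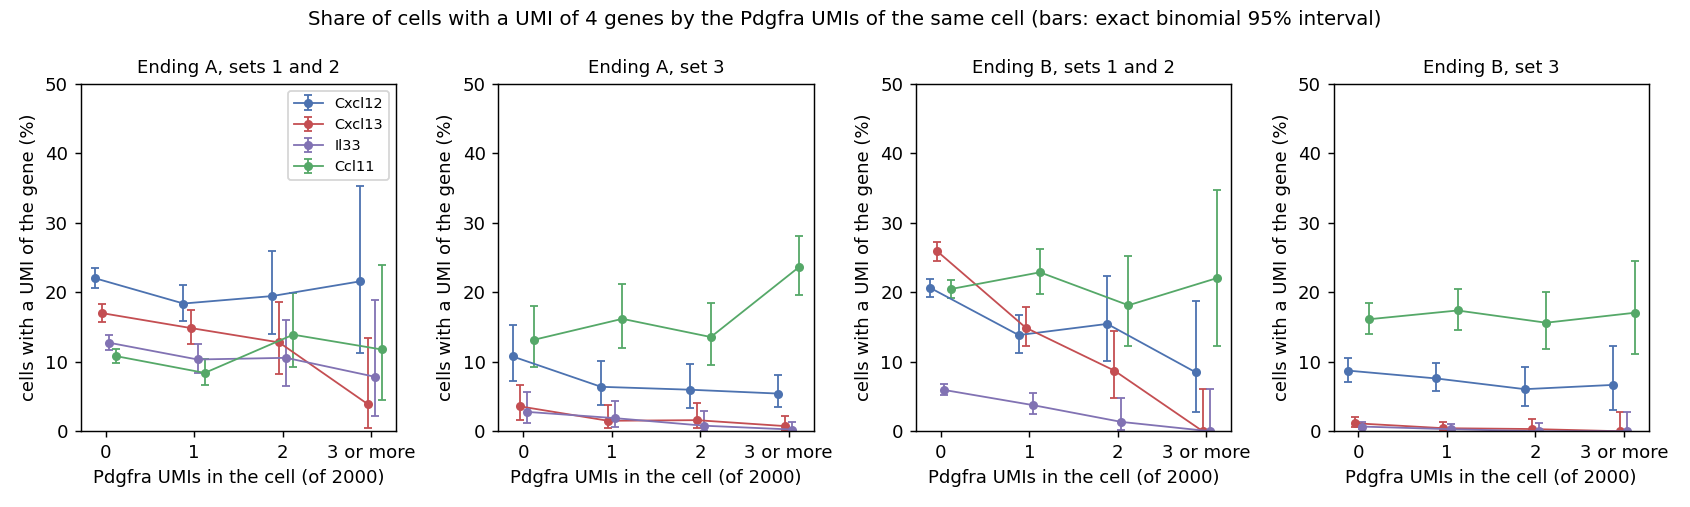
Share of cells with a UMI (%, vertical axes) of Cxcl12, Cxcl13, Il33 and Ccl11 by the number of Pdgfra UMIs in the same cell after thinning to 2000 UMIs (horizontal axes), with exact binomial 95% intervals. Cxcl13 in sets 1 and 2 of ending B goes from 25.9% at 0 Pdgfra UMIs to 0 at 3 or more, whereas Ccl11 stays between 18.1% and 22.9% there.

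As a single measure, the number of cells holding a gene together with Pdgfra was divided by the number that independent detection within each set would give. Of the 9 members with at least 5 expected cells in both endings, 0 stood at 0.67 or less in both, against 0.203% of all 11821 genes, and 0 stood at 1.5 or more, against 0.00846% of all genes. The lowest were Cxcl13, with 167 cells where 197 were expected in ending A (0.85) and 116 where 213 were in ending B (0.54), and Il33, with ratios of 0.83 and 0.56. Their intervals stayed below 1 in both endings (0.72 to 0.99 and 0.45 to 0.65 for Cxcl13, 0.69 to 0.99 and 0.38 to 0.80 for Il33). Within single sets every ratio of both genes was below 1. The interval lay below 1 only in A2, B1 and B2 for Cxcl13 and only in B2 for Il33 (0.23 to 0.81). Cxcl12 was at 0.88 and 0.77. Ccl11 (0.99 and 1.04), Cxcl14 (1.05 and 1.06) and Cxcl2 (1.10 and 1.09) had intervals that held 1 in both endings. The median over the members was 0.90 and 0.85, beside 1.00 over all genes in each ending. No member therefore excluded Pdgfra in both endings by this measure. When the expectation was taken from each ending as a whole instead of from its sets, 2 members, Cxcl13 (0.62 and 0.36) and Il33 (0.61 and 0.38), passed the limit in both, beside 1.59% of 11760 genes. That expectation also takes in the differences between set 3 and sets 1 and 2 in both genes and in Pdgfra.

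Among themselves, the members formed pairs detected in the same cells. Of 45 pairs, 27 had at least 5 expected cells in both endings, and 3 of these were found together at 1.5 times expectation or more in both. Over all 70876 pairs of a member with another gene, 0.758% did so and 1.66% stood at 0.67 or less in both, and 0 member pairs did the latter. The median ratio over the 27 pairs was 1.72 in ending A and 0.99 in ending B, beside 0.97 and 0.99 over all pairs.

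Cxcl13 and Il33 were each in 2 of these 3 pairs. Cxcl13 and Il33 shared 156 cells where 89.7 were expected in ending A (1.74, interval 1.48 to 2.03) and 118 where 59.6 were expected in ending B (1.98, interval 1.64 to 2.37). Cxcl13 and Cxcl14 shared 28 against 17.5 (1.60) and 55 against 32.1 (1.71), and Cxcl10 and Il33 shared 34 against 16.9 (2.01) and 15 against 8.34 (1.80). The intervals of all 3 pairs lay above 1 in both endings, with 1.007 as the lower limit of Cxcl10 with Il33 in ending B. The pairs had been picked by their ratios in these same counts. The intervals therefore add no support to the call, and they cover counting error only. In ending A the ratio of Cxcl13 with Cxcl14 was 0.99 with expectations from the whole ending and 0.50 in set 3 only, and that of Cxcl13 with Il33 was 0.97 among cells with no cycling UMI. Cxcl12 was near the same limit, sharing 271 cells with Cxcl13 where 158 were expected in ending A (1.72) and 314 where 214.5 were in ending B (1.46).

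A second group, Cxcl1, Cxcl2, Cxcl10 and Ccl2, was found together more strongly, in pairs with fewer than 5 expected cells. These pairs were taken up after their values had been seen, by a minimum of 2 expected cells, which raised the count of pairs found together to 8 of 38, beside 1.31% of 92580 pairs of a member with another gene. Cxcl1 and Cxcl10 shared 45 cells where 4.75 were expected in ending A (9.47, interval 6.91 to 12.7) and 32 where 4.66 were expected in ending B (6.87, interval 4.70 to 9.70). Cxcl2 and Cxcl10 shared 18 against 2.52 (7.14) and 37 against 4.83 (7.67), and Cxcl1 and Cxcl2 shared 20 against 2.78 (7.20) and 22 against 3.45 (6.38). Ccl2 was found with Cxcl10 at 5.28 and 6.25 times expectation and with Cxcl1 at 3.08 and 2.89 times. All 6 pairs of this group were above 2 in both endings, although Cxcl2 with Ccl2 had fewer than 2 expected cells in ending A. Doublets and free RNA were not resolved, and their part in shared detection was not tested.

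The transcripts of rare members were held by few cells. The top 1% of cells held 55.1% to 64.7% of the Cxcl10 UMIs of a set and 40.1% to 50.2% of those of Cxcl1, compared with 7.55% to 18.4% for Cxcl12. Members outside this group did the same where they were rare, with 66.04% to 100.0% for Ccl7, 19.1% to 65.2% for Cxcl14 and, in B3, 94.0% for Cxcl13. A gene found in fewer than 1% of cells reaches 100.0% by definition, as Ccl7 did in B1, B2 and B3 (0.68%, 0.64% and 0.27%). Cxcl13 was found in 1.14% of the cells of B3, so such shares largely restate how rare a gene is. Single cells reached 46 Cxcl10 UMIs in A1 and 44 in A3, against a mean of 5.41 and 4.00 per cell with any.

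Across endings, Ccl11 changed partners. In ending B it was found apart from Cxcl13, with 51 cells where 231 were expected (0.22, interval 0.16 to 0.29), and from Il33, with 19 against 54.2 (0.35, interval 0.21 to 0.55). In ending A the ratios were 0.77 (0.59 to 0.98) with Cxcl13 and 1.39 (1.11 to 1.72) with Il33. Cxcl1, Cxcl2 and Ccl2 were found with Ccl11 at 2.42, 2.19 and 1.73 times expectation in ending A and at 1.29, 1.36 and 1.29 times in ending B. Cxcl1 with Cxcl13 went from 1.98 in ending A to 0.55 in ending B. Depth differed between the endings (median 11481 and 3911 UMIs per cell before thinning), and no label ties an ending to an age.

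**Figure D4:**
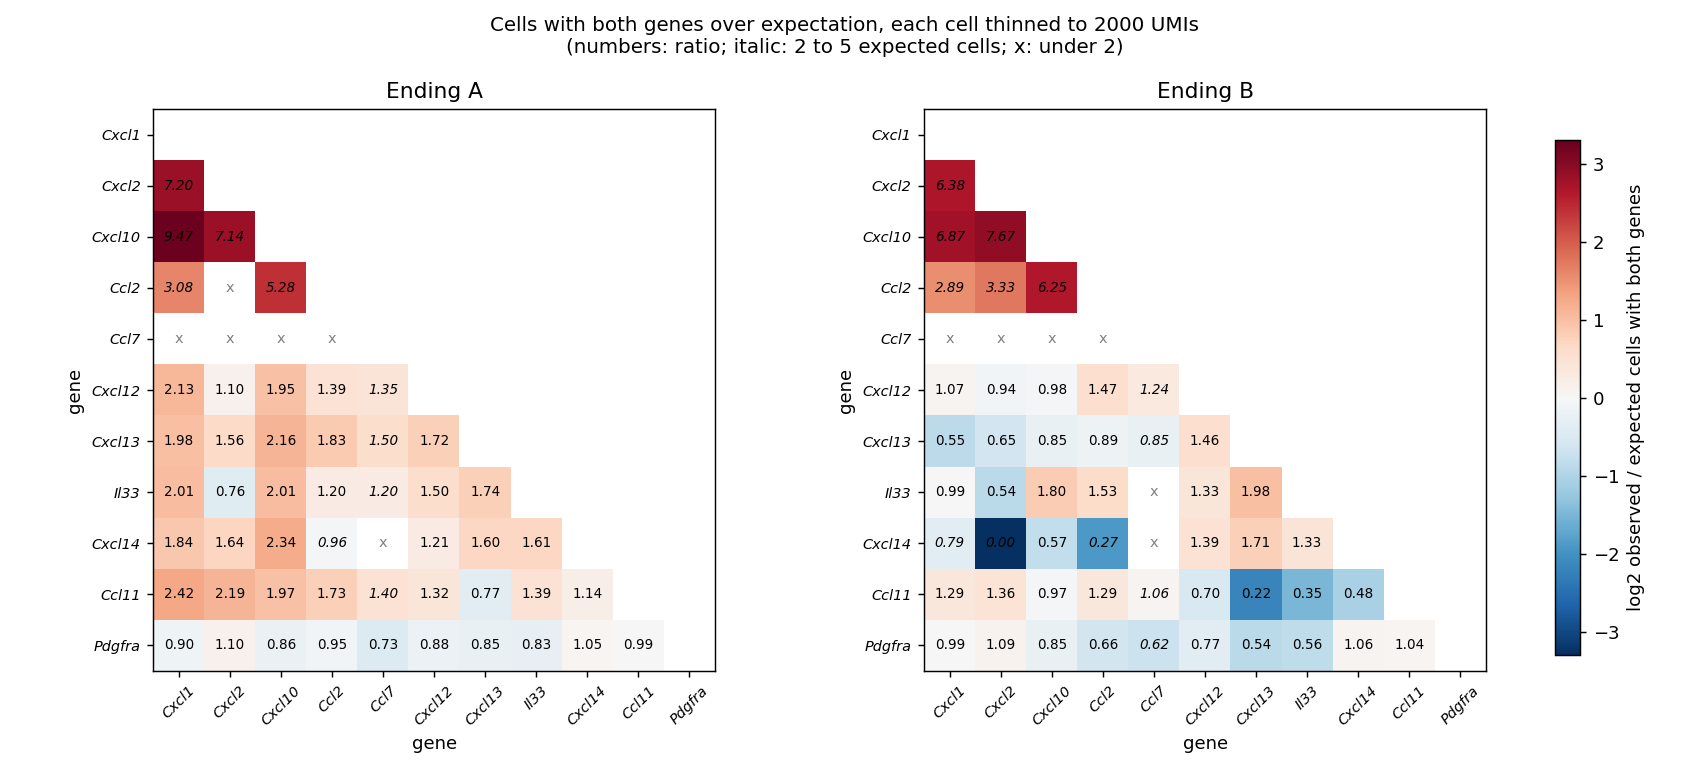
Observed over expected number of cells with both genes for each pair of the 10 genes and Pdgfra in endings A and B, after thinning to 2000 UMIs (colour: log2 ratio, numbers: ratio). Cxcl1, Cxcl2, Cxcl10 and Ccl2 form a block of high ratios in both endings, and the ratio of Ccl11 with Cxcl13 is 0.22 in ending B and 0.77 in ending A.

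Genes of known pathways were set beside the members, list by list. With Cxcl10, 5 of 7 tested genes of the NF-kB list were found together at 1.5 times expectation or more in both endings, namely Nfkbia, Nfkbiz, Ier3, Rel and Irf1, beside 0.771% of 6870 genes tested with Cxcl10. Nfkbia, the inhibitor that NF-kB induces, shared 100 cells with Cxcl10 where 34.7 were expected in A (2.88) and 146 where 45.1 were expected in ending B (3.24). The counts were 4 of 7 for Cxcl1, 2 of 6 for Cxcl2 and 3 of 7 for Ccl2, and 0 for each other member tested. Over all genes tested with them the shares were 0.647% for Cxcl1, 0.477% for Cxcl2 and 0.246% for Ccl2. Immediate early and dissociation genes, which are also known to rise when tissue is digested into cells, were found together with the same members: 7 of 12 with Cxcl10, 6 of 12 with Cxcl1 and 2 of 12 with Cxcl2, but 0 of 12 with Ccl2. Zfp36, of that list, shared 109 cells with Cxcl10 where 44.6 were expected in ending A and 64 where 25.0 were expected in ending B. The tissue had been digested with enzyme at 37 °C, and the part of this step was not tested.

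The genes most like each member were taken from 7628 or 7629 genes by the lower of the 2 endings' Pearson r of log2 thinned counts, over 5713 and 6876 cells that share sets and depth. Cxcl13 was most like Dcn (r of at least 0.46), Ogn (0.44), Col1a1 (0.42), Sparc (0.41) and Col3a1 (0.40), which encode matrix proteins of fibroblasts. Cxcl10 was most like Nfkbia (0.28) and then Cxcl1, Jun, Ccl2 and Irf1. For the other members the lower r was at most 0.21, although single endings reached 0.38 (Cxcl12 with Dcn in ending A), and such weak values in sparse counts are not read further.

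By cluster, the highest levels of ending A lay in 2 populations. Ac3, led by Col6a5 with Lepr and Wfdc1 (427 cells), held the highest Cxcl1 (125 CPM), Cxcl2 (63.9 CPM), Cxcl10 (202 CPM), Ccl11 (647 CPM) and Il33 (181 CPM) among clusters of at least 50 cells. It held 42.9% of all Cxcl1 UMIs and 40.7% of all Cxcl10 UMIs of the ending. Ac8, led by Dpt, Aspn and Mgp (330 cells), held the highest Cxcl12 (583 CPM), Cxcl13 (1409 CPM) and Ccl2 (138 CPM). Ac8 carried 40.1% of the Cxcl13 UMIs of the ending, and 93% of its cells had at least 1. Both clusters lay almost wholly in sets 1 and 2, with 0.94% and 1.21% of their cells from A3.

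Cxcl14 had another place. Ac0, a PDGFRA-high cluster led by Npnt and Slco2a1 (720 cells), held 50.1% of the Cxcl14 UMIs of ending A at 124 CPM, and Ac15, led by Igfbp3 (56 cells), stood at 187 CPM. Ac0 also held Ccl11 at 328 CPM beside Cxcl13 at 7.61 CPM and Il33 at 1.06 CPM. Of its cells 93.5% came from A3. In ending B the matching leading gene, Npnt, marked Bc1, where Cxcl14 stood at 16.2 CPM and Ccl11 at 220 CPM.

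In ending B, Bc0, led by Ogn and Aspn (1318 cells), held the highest Cxcl12 (181 CPM), Cxcl13 (952 CPM), Il33 (72.6 CPM) and Cxcl14 (31.1 CPM), with 68.1% of all Cxcl13 UMIs and 54.8% of all Il33 UMIs. Its Ccl11 level was 11.9 CPM, whereas Bc7 and Bc3 stood at 389 and 373 CPM for Ccl11 and at 10.7 and 8.69 CPM for Cxcl13. Cxcl1 was highest in Bc5 (41.6 CPM), Cxcl2 and Cxcl10 in the PDGFRA-high cluster Bc6 (53.4 and 115 CPM), and Ccl2 in Bc10 (60.0 CPM, 78 cells). The clusters with most Cxcl13 and most Ccl11 were thus different ones in each ending.

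**Figure D5:**
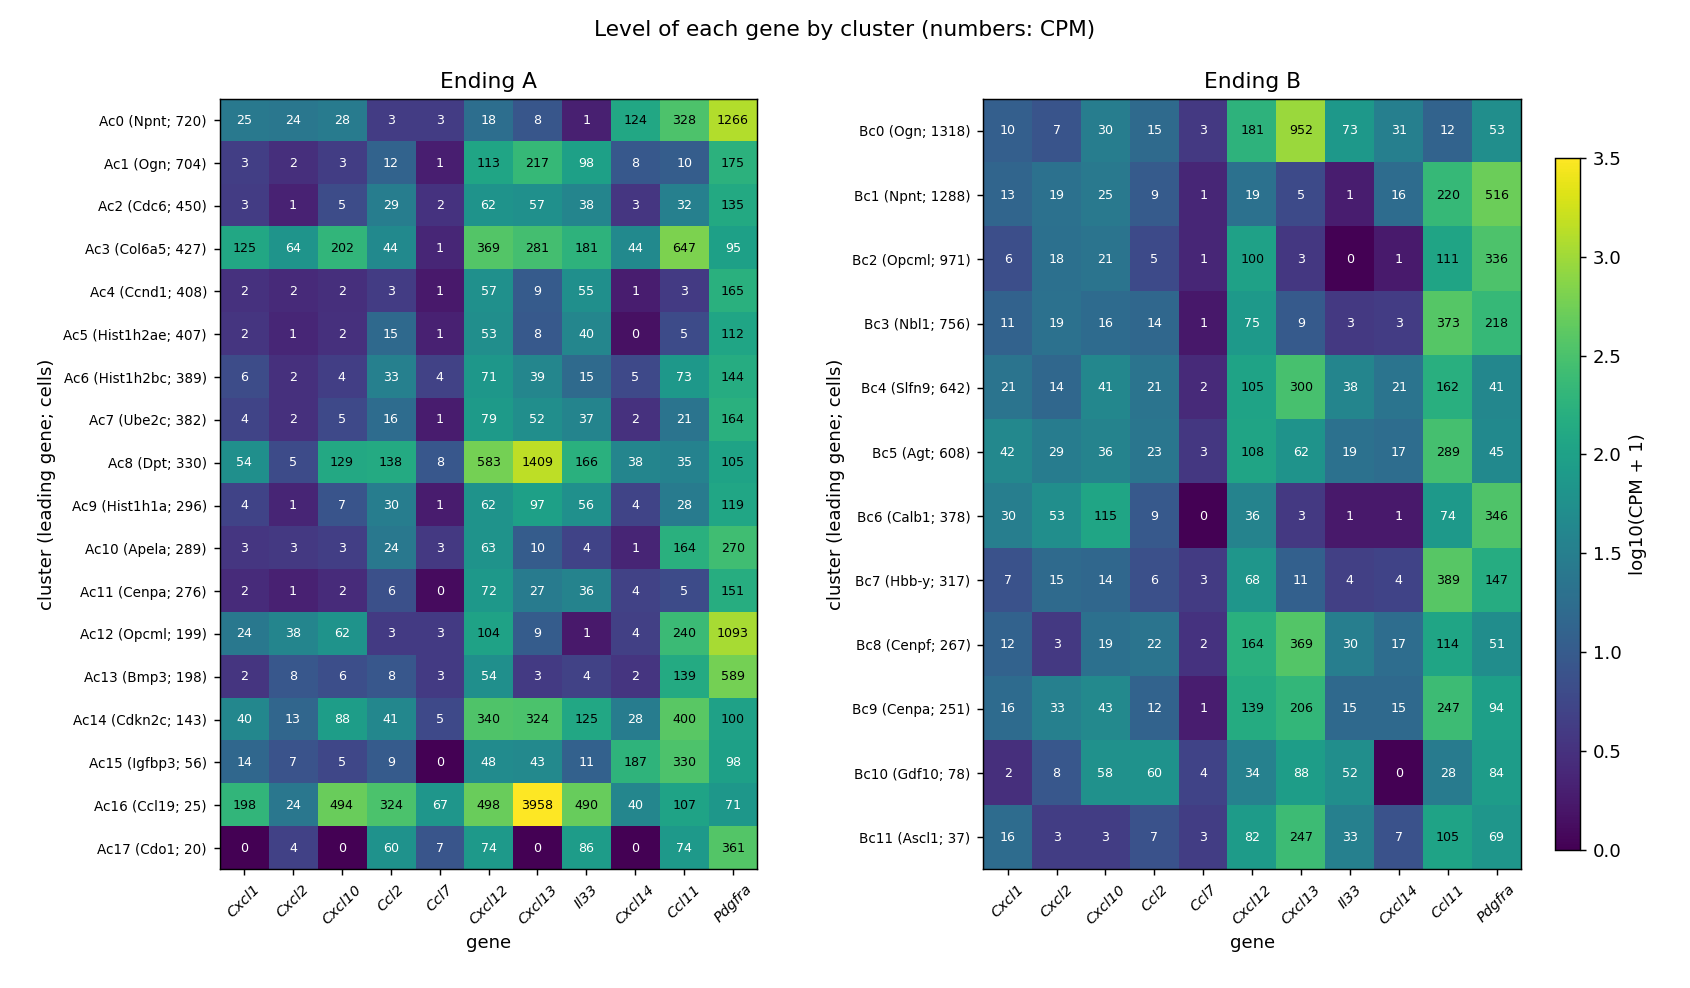
Level of each gene (colour: log10 of CPM + 1, numbers: CPM) in every cluster of endings A and B, with the leading gene and the number of cells. Cxcl13 peaks in Ac16, Ac8 and Bc0, Ccl11 in Ac3, Bc7 and Bc3, and the PDGFRA-high clusters (Ac0, Ac12, Ac13, Bc1, Bc2, Bc6) hold Ccl11 at 74.1 to 328 CPM with Cxcl13 under 10 CPM.

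Cluster Ac16, with 25 cells, was under the size limit and was singled out after its values had been seen. It was led by Ccl19, Clu, C3 and Ccl21a, of which Ccl19 and Ccl21a encode ligands of CCR7. Its levels were the highest of the ending for Cxcl13 (3958 CPM), Cxcl10 (494 CPM), Il33 (490 CPM), Ccl2 (324 CPM), Cxcl1 (198 CPM) and Ccl7 (67.2 CPM), whereas Pdgfra stood at 71.2 CPM. Ccl7 was rare, and a single cell of A1 held 16 of the 75 Ccl7 UMIs of that set, so its level here is not read further. Cluster Ac16 carried 10.2% of all Cxcl13 UMIs of ending A. Madcam1 and Vcam1, adhesion molecules for lymphocytes, stood at 189.8 CPM and 815 CPM there, from 48 and 206 UMIs. Of its cells 20 came from A1, 5 from A2 and 0 from A3, and Ccl19 was detected in 22 cells in all, 14 of them in this cluster and 0 in ending B. The 25 cells stayed together as a cluster of 25 at a higher clustering resolution and lay in a cluster of 513 at a lower resolution. It is given no cell type name.

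Chemokine and Il33 receptors were low in these cells. Of 20 such genes listed and found in the matrix, 3 reached 5 CPM in an ending. The list also holds receptors of other ligands, such as Ccr7, so the count does not cover receptors of the 10 members alone. Ackr3, which takes up CXCL12, stood at 7.77, 8.04 and 28.4 CPM in ending A and 9.46, 15.0 and 28.7 CPM in ending B, and the log2 ratio of set 3 to sets 1 and 2 was 1.85 and 1.21. Ackr3 was found apart from Cxcl13 (0.36 and 0.17 times expectation) and from Il33 (0.38 and 0.14). Il1rl1, the IL-33 receptor, stood at 0.45, 0.38 and 35.9 CPM in A1, A2 and A3, and at 1.58 CPM or less in ending B. Of its UMIs in A, 332 lay in cluster Ac0, whose Il33 level was 1.06 CPM. The part of the other cell types that moved with set 3 in these receptor levels was not tested.

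Among 11 genes of a lymphoid organizer list, 6 reached 5 CPM. Of the 6 tested, 1 was at least 2-fold lower in set 3 of both endings: Vcam1, by 8.89-fold in ending A and 8.24-fold in ending B. The median log2 ratio of the list was 0.53 and 0.08, and Ltbr and Tnfrsf1a were higher in set 3 of both endings. Vcam1 was found together with Cxcl13 (2.24 and 1.57 times expectation), Il33 (1.85 and 1.55) and Cxcl10 (2.30 and 1.78). It was the only such gene among the 6, 5 and 3 of the list tested with these members. Of 24 other chemokines and stromal cytokines in the matrix, 4 reached 5 CPM: Ccl25, Cxcl16, Tslp and Csf1. Csf1, the growth factor of macrophages, was 4.01-fold and 2.87-fold higher in set 3. Cxcl16 was found together with Ccl11 and with Cxcl10 and apart from Cxcl13.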

How the data were processed

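The 6 samples were prepared with MULTI-seq and 10x Chromium v3 chemistry, per the labels' protocols. The submitters' processing notes name Cell Ranger 2.1.1, Seurat and mm10, with no roles. The authors deposited 1 matrix of raw UMI counts per gene and cell, per the file headers and whole-number values, with no normalization, so counts rest on their cell calling (1501 to 23996 UMIs per cell). Suffixes were read as technical sets only.

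Cells with fewer than 1000 genes (108) or over 5% mitochondrial UMIs (367) were left out. Scrublet in scanpy 1.11.5 (expected rate 5%) marked 60 of 13127 barcodes, which were removed. So low a share does not show that the caller worked, and doublets may remain. The lowest set median of 3548 UMIs per cell limits what is seen of rare genes.

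CPM is the sum of a gene's counts over all counts of the cells. Exact Poisson intervals (CPM), conditional binomial intervals (ratios) and Clopper-Pearson intervals (shares), all at 95% from scipy 1.17.1, cover counting error only, and a count of 0 is given as 3 counts. Each cell was thinned to 2000 UMIs for co-detection, with expectations summed over sets. Genes needed 5 CPM in a compared set of each ending, and pairs 5 expected cells. Clusters came from 2000 variable genes, 30 components, 15 neighbours and leidenalg 0.10.2 at resolution 1 in each ending. Leading genes had at least 30 CPM and the highest fold over the rest, members left out. A cluster was given another lineage with 3 markers at 4-fold and 1 among its 10 leading genes, a rule set after seeing the clusters, like the choice of motifs. The genes named were the members, the 5 genes most like each, and genes of lists reaching 5 CPM. Members and lists were chosen with earlier results of these data known. The calculations were tested on simulated data. Alternatives changed the summary, filters, doublets, comparison sets, thresholds, depth, expectation, cells and clustering.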

Additional observations from a re-analysis of the deposited data

How the results depend on the processing

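No paired analysis was possible because the lane numbers shared by the groups cannot be tied to cells of the matrix. The cells are 1 sample, so nothing here measures variation between embryos, and rare genes such as Ccl7 are limited by depth.

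The 4 members lower in set 3 became 2 with a fold of 3 and 0 within PDGFRA-high clusters, an alternative added after seeing the data. The 3 member pairs found together became 5 with thinning to 1000 UMIs, 6 with 4000, 6 without thinning, 1 when 2 UMIs were required, 5 with expectations from the whole ending, 0 in set 3 only, 1 among cells with no cycling UMI, 10 at the lower ratio limit tried, 0 at the higher one (2) and 8 of 38 with a minimum of 2 expected cells, the last added after seeing the data. The members apart from Pdgfra went from 0 to 2 when 2 UMIs were required, with expectations from the whole ending, and among cells with no cycling UMI, of which A1 and A2 held 65 and 39.

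Directions changed in 5 of 180 log2 ratios and 3 of 285 co-detection ratios. Ccl11 in ending A had a log2 ratio of -0.082 among cells with no cycling UMI and -0.93 within PDGFRA-high clusters, where Cxcl13 had 0.48 and Ccl2 0.85. Cxcl14 in ending A had -0.89 within other mesenchymal clusters, where A3 held 10 of its UMIs. In ending A, Cxcl13 with Cxcl14 had a ratio of 0.99 with expectations from the whole ending and 0.50 in set 3 only, and Cxcl13 with Il33 had 0.97 among cells with no cycling UMI. The cause was not tested. Of the 180 log2 ratios, 130 stayed within the counting interval.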
